A study of Mus musculus with 12 samples.

Results

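H3K27me3 was compared between 46c mESCs transfected with tSBE2-Vp64 and 46c mESCs transfected with the eGFP control, using 4 of the 12 arrays of the series. The 46c line is a mouse embryonic stem cell line that carries GFP in the neural gene Sox1. tSBE2-Vp64 is a transcription activator-like effector (TALE), a designed DNA-binding protein, aimed at the distal enhancer SBE2 and fused to the Vp64 activation domain. SBE2 forms part of SBE2/3, which lies 450 kb upstream of Shh. Both populations were made by lipid transfection and were transient pools of cells, not clones. According to the study's methods for its TALE experiments, cells were sorted on eGFP, which the TALE plasmids carry behind a self-cleaving peptide. The labels name tSBE2-Vp64 as the transfected agent of the tSBE2-Vp64 arrays, whereas eGFP is named in the titles of the control arrays. Each population was hybridised to 2 arrays, R1 and R2, which the titles assign to the same biological replicate, and all 4 arrays were on 1 slide. The spread between R1 and R2 may therefore be technical, and no measure of the variation between separate transfections is given by them.

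H3K27me3 is laid down by the Polycomb repressive complex PRC2 and covers the CpG-rich promoters of many developmental genes that are silent in mESCs. Shh encodes a secreted signal that patterns the ventral neural tube and the limb. In mESCs it is silent, and it is controlled from far upstream by a series of brain enhancers, of which SBE2 is known to be bound by the forebrain transcription factor SIX3. The comparison addresses whether bringing an activation domain to a far enhancer was accompanied by a different H3K27me3 level at that enhancer, at Shh, or elsewhere.

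The array held 48316 probes of 60 bases, in 39 tiled regions and with a median step of 60 bp. The largest region surrounds Shh (mm9 chr5:28466879-29826615) and the others hold developmental, pluripotency, imprinted and housekeeping loci. Values are log2 ratios of the red over the green signal, centred on the median of each array, so that 0 is the level of the median probe. The labels assign ChIP DNA to the green dye Cy3 and input to the red dye Cy5, yet the ratios deposited by the authors had a correlation of 0.925 (eGFP) and 0.903 (tSBE2-Vp64) across probes with log2 red over green. The deposited direction was used, in which the Hoxd cluster is high and Gapdh and Actb are low. If the dye labels held instead, every sign would be the opposite. On these 4 arrays, the share of probes well above background was 85.7% to 88.7% in red and 91.4% to 94.7% in green. Spots with an outlier mark were left out, 367 to 1049 probes on 3 of the arrays and 3122 on tSBE2-Vp64 R1. Over 5 kb tiles, the correlation between R1 and R2 was 0.989 for eGFP and 0.990 for tSBE2-Vp64. The SD of log2 ratios over tiles was 0.79 on eGFP R1 and 0.65 to 0.68 on the other 3 arrays, so eGFP R1 had the widest range of values.

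To show what lies under the probes, the mm9 plus-strand sequence is printed for the probe nearest the Shh transcription start site (TSS), the probe nearest the nominal position of SBE2/3, a probe in the most H3K27me3-rich bin near SBE2/3, the probe nearest the En2 TSS, and the probe at the centre of the tile with the lowest difference. Capitals mark CpG dinucleotides, the sites that are dense where Polycomb domains form at promoters.
Shh TSS: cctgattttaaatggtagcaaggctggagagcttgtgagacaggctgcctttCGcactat
SBE2/3 position: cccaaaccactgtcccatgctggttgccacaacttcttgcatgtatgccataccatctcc
10 to 12 kb beyond SBE2/3: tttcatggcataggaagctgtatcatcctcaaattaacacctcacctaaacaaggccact
En2 TSS: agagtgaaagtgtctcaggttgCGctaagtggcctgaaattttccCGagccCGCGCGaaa
Tile upstream of Hoxd13: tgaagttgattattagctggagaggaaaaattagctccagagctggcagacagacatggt

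The Shh TSS probe (chr5:28793606-28793665) overlaps the first exon of Shh and holds 1 CpG. Its log2 ratio was 2.10 and 1.94 on the eGFP arrays and 0.83 and 1.32 on the tSBE2-Vp64 arrays. The probe at the SBE2/3 position (chr5:29243631-29243690) lies in an intron of the long non-coding RNA 9530036O11Rik and holds 0 CpGs. It read -0.66 and 0.16 with eGFP and -0.17 and -0.14 with tSBE2-Vp64, so the eGFP arrays differed from each other by more than they differed from tSBE2-Vp64. The En2 probe (chr5:28492236-28492295) is exonic and holds 5 CpGs, and read 1.03 and 0.61 with eGFP against 0.31 and 0.40 with tSBE2-Vp64. These single probes are noisy, and the results below rest on means over many probes.

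At the Shh promoter, tSBE2-Vp64 cells had a slightly lower H3K27me3 ratio than the eGFP control, and the difference came almost wholly from 1 control array. In a window of 130 probes that reached 5 kb to each side of its TSS (chr5:28788641-28798641), the mean log2 ratio was 1.45 on eGFP R1, 1.08 on eGFP R2, 1.06 on tSBE2-Vp64 R1 and 1.07 on tSBE2-Vp64 R2. Both tSBE2-Vp64 arrays were below both eGFP arrays, but they lay within 0.03 of eGFP R2. The difference was -0.20, with means of 1.26 ± 0.26 (SD, n = 2 arrays) for eGFP and 1.06 ± 0.0047 (SD, n = 2 arrays) for tSBE2-Vp64. Against eGFP R1 alone it was -0.38 and against eGFP R2 alone -0.02. Shh thus kept a high H3K27me3 ratio with tSBE2-Vp64, well above the 0 of the median probe on every array.

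**Figure D1:**
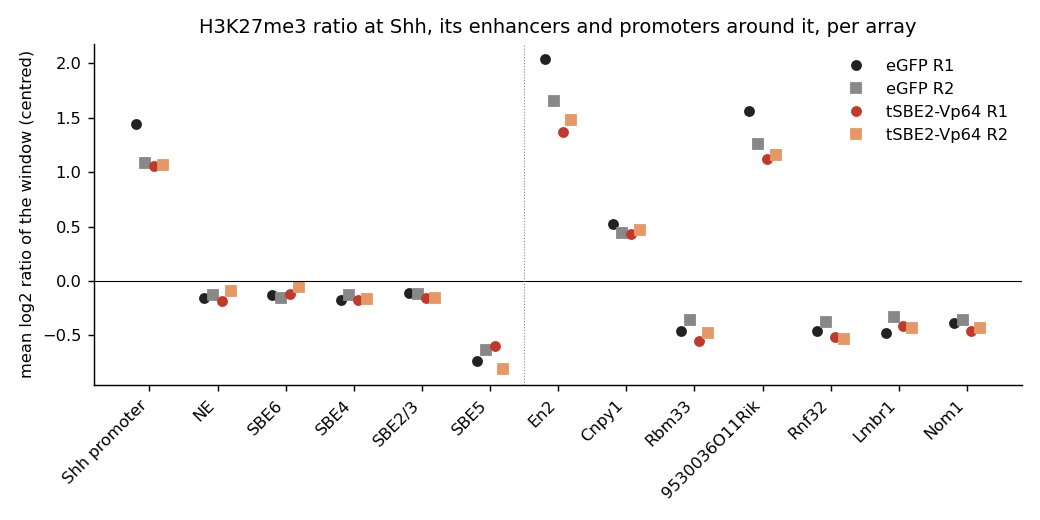
Mean log2 ratio (vertical axis, centred on each array's median) of probes within 5 kb of the TSS of Shh and of the genes around it, and within 10 kb of each Shh enhancer, with 1 point per array. Shh, 9530036O11Rik and En2 stand above 1 on all 4 arrays, the enhancers lie at or below 0, and eGFP R1 is the highest point at each of these 3 promoters.

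In the gene itself the difference was uneven. In the 5 kb tile over the Shh gene body (chr5:28785001-28790000, exonic) the ratio was 1.90 and 1.62 with eGFP and 1.41 and 1.42 with tSBE2-Vp64, a difference of -0.34 ± 0.15 (SE) in limma over populations, with an adjusted p of 0.69. In the adjoining tile that holds the TSS (chr5:28790001-28795000) the arrays overlapped, with 1.65 and 1.19 for eGFP and 1.31 and 1.19 for tSBE2-Vp64. In 37 bins of 1 kb around the TSS, the arrays had similar profiles with exceptions, such as the bin 9 to 10 kb into the gene, which read 0.77 on eGFP R2 and 1.47 to 1.93 on the other 3 arrays. The largest lower bin was the first kb of the gene, at 2.39 and 1.98 with eGFP and 1.69 and 1.55 with tSBE2-Vp64, a difference of -0.57. The next was the bin 6 to 7 kb into the gene, with a difference of -0.50. On the other side, 8 to 9 kb upstream of the TSS, both tSBE2-Vp64 arrays were higher, at 0.41 and 0.78 against 0.22 and 0.23. In all, 14 of the 37 bins had both tSBE2-Vp64 arrays below both eGFP arrays and 3 had both above. Over all 4367 bins of this size on the array these shares were 31.5% lower and 17% higher. That background is not matched for level. Among 5 kb tiles, 30.5% were lower where the level in 2 other populations of the slide was below 0, and 68.4% where it was 1 or more. Between 19 (eGFP R2 and tSBE2-Vp64 R1) and 25 (eGFP R1) of the 37 bins were at 0.5 or more. The tSBE2-Vp64 arrays, with 19 and 22, were thus within the range of the 2 control arrays.

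At SBE2/3, where the activator was aimed, no difference was found that held across ways of processing the arrays. Within 10 kb of the nominal position (220 probes, chr5:29233641-29253641, in an intron of 9530036O11Rik) the log2 ratio was -0.11 and -0.12 with eGFP and -0.16 and -0.16 with tSBE2-Vp64. The arrays did not overlap, but the difference of -0.04 was close to the median of -0.05 over all 963 tiles. It was 0.01 after normexp background correction, 0.02 with probes well above background and 0.02 in the authors' own ratios, so its sign was not settled. The level was close to that of the median probe in both populations. The exact target of the TALE is not given in the sources used here, and the window need not be centred on it.

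**Figure D2:**
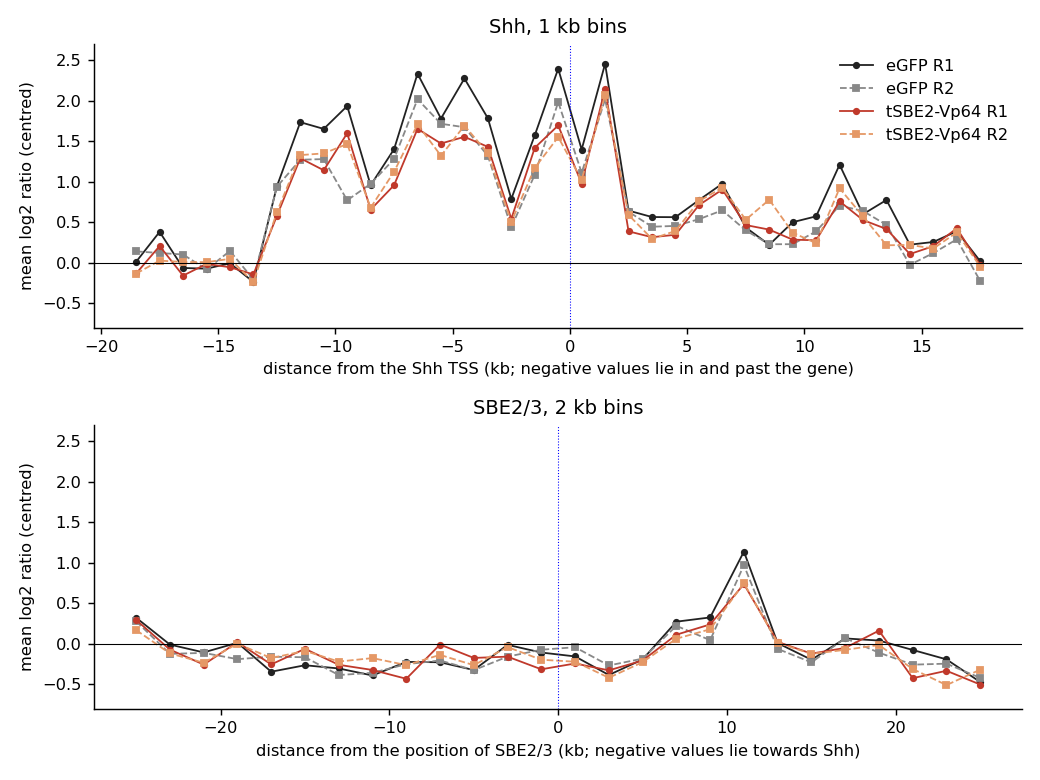
Mean log2 ratio by distance in 1 kb bins around the Shh TSS (top) and in 2 kb bins around the nominal position of SBE2/3 (bottom), with 1 line per array and the same vertical scale. The domain over Shh reaches above 2 on eGFP R1, eGFP R2 and both tSBE2-Vp64 arrays, with eGFP R2 lower than the others 9 to 10 kb into the gene, whereas around SBE2/3 only the bin 10 to 12 kb beyond it reaches 0.5 on any array.

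A finer look within 25 kb of SBE2/3 gave 26 bins of 2 kb, of which 10 were lower on both tSBE2-Vp64 arrays and 7 higher. The background for all 2290 tiles of 2 kb was 34.2% lower and 15.5% higher. The bins on each side of the nominal position had differences of -0.17 (2 kb towards Shh) and -0.13 (2 kb away from it). Farther out, bins on both sides were higher by up to 0.14, but others were as low as the central ones. Such bins lay 20 to 22 kb towards Shh (-0.14), and 20 to 22 kb (-0.20) and 22 to 24 kb (-0.20) away from it. The central bins were thus not set apart from the rest of the profile. One bin stood out by its level. At 10 to 12 kb beyond SBE2/3, still in the intron of 9530036O11Rik, the ratio was 1.14 and 0.97 with eGFP and 0.74 and 0.75 with tSBE2-Vp64, a difference of -0.31 over 13 probes. This bin was picked out after its values were seen, and its middle probe (chr5:29254352-29254411), printed above, holds 0 CpGs and read 1.46 and 1.32 against 0.46 and 0.80.

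The tiles on the 2 sides of SBE2/3 had small median differences of opposite sign. Over all tiles of this size, 35.9% were lower on both tSBE2-Vp64 arrays and 11.8% higher. Of the 10 tiles of 5 kb in the 50 kb towards Shh, 6 were higher on both tSBE2-Vp64 arrays and 2 lower, with a median difference of 0.05. Of the 9 tiles in the 50 kb away from Shh, 7 were lower and 1 higher, with a median of -0.10. Under loess and scale normalization, normexp, the filter on dim probes and rescaling, the medians ranged from 0.08 to 0.11 towards Shh and from -0.09 to -0.05 away from it. From 50 to 100 kb the medians were 0.00 towards Shh and -0.01 away from it. The split at SBE2/3 was noticed in the data and has no test, and neighbouring tiles are not independent.

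**Figure D3:**
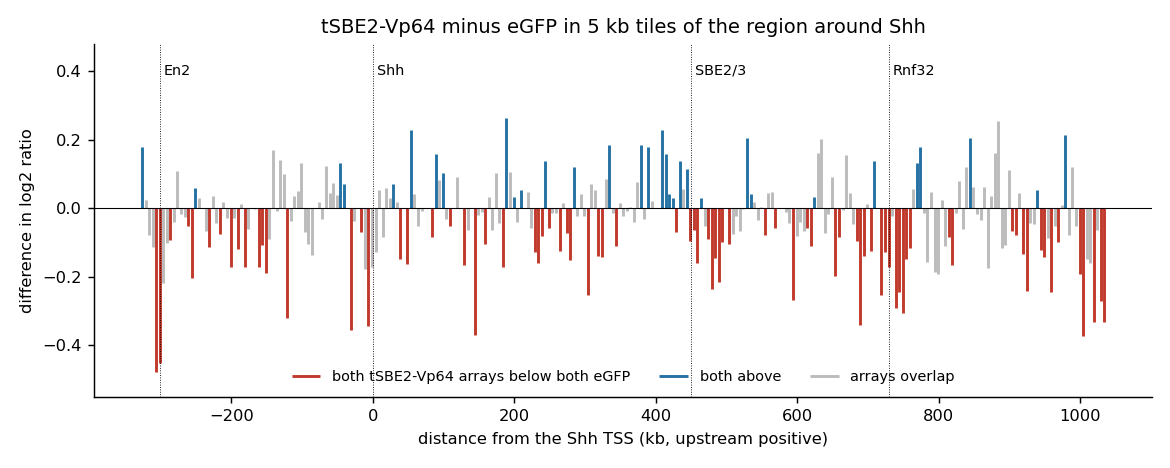
Difference in log2 ratio, tSBE2-Vp64 minus eGFP, in each 5 kb tile of the region around Shh (vertical axis) by distance from the Shh TSS (horizontal axis, kb), coloured by whether the 2 arrays of each population overlapped. Differences of both signs are spread over the whole region, and the lowest tiles are at En2, at -0.48 and -0.45.

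Of the other brain enhancers of Shh, SBE6 was slightly higher with tSBE2-Vp64, and the arrays overlapped at SBE4 and SBE5. SBE6 (100 kb upstream) read -0.13 and -0.15 with eGFP and -0.12 and -0.05 with tSBE2-Vp64, and both tSBE2-Vp64 arrays were above both eGFP arrays by a mean of 0.05, with the same sign under every alternative run (0.0198 to 0.0995). SBE4 (350 kb upstream) read -0.18 and -0.13 against -0.18 and -0.17. SBE5 (780 kb upstream) read -0.73 and -0.63 against -0.60 and -0.81, and its tSBE2-Vp64 arrays lay on both sides of the eGFP pair. NE, a site 66.08 kb upstream of the TSS that the study targeted outside the known enhancers, read -0.15 and -0.13 against -0.18 and -0.09. None of these windows was above 0 on any array.

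Among the genes in and around the Shh domain, Shh included, 6 of 8 were lower on both tSBE2-Vp64 arrays and 0 higher. Over all 42 promoters measured, 24 were lower and 1 higher, and over all 5 kb tiles 35.9% were lower and 11.8% higher. Within the domain, the differences were largest at the genes with most H3K27me3. At 9530036O11Rik, transcribed in the direction opposite to Shh and annotated here from inside the Shh gene, the promoter read 1.56 and 1.26 with eGFP and 1.12 and 1.16 with tSBE2-Vp64. Its window shares probes with that of Shh and is not a separate measurement. En2, a homeobox gene of the midbrain and hindbrain whose TSS is at -301.4 kb from that of Shh, on the side away from the enhancers, had the lowest difference of the 42 promoters measured, with 2.04 and 1.66 for eGFP and 1.37 and 1.48 for tSBE2-Vp64, or -0.42. Cnpy1, next to En2, overlapped between the populations at 0.52 and 0.44 against 0.43 and 0.47. Rbm33, Rnf32, Lmbr1 and Nom1, which flank or lie in the domain, were all between -0.33 and -0.55 on the 4 arrays, with differences of -0.11, -0.11, -0.02 and -0.07. The arrays did not overlap at Rbm33, Rnf32 and Nom1 and overlapped at Lmbr1. In the authors' ratios the differences at Rbm33, Rnf32 and Nom1 were 0.01, -0.02 and -0.01.

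The lower value at Shh stood beside a pattern over all tiled loci, in which tiles with more H3K27me3 read lower with tSBE2-Vp64. Across 963 tiles of 5 kb, with at least 5 probes on every array, the values of the populations had a correlation of 0.985, and the slope of tSBE2-Vp64 on eGFP was 0.91. Tiles were graded by their level in 2 other populations on the slide, tShh-Vp64 and tSBE6-Vp64, which do not enter the difference. The median difference was -0.03 in the 522 tiles below 0, -0.05 in the 346 tiles from 0 to 1 and -0.24 in the 95 tiles at 1 or more. Of these 95, 65 were lower on both arrays and 0 were higher. The 8 such tiles in the region around Shh had a median of -0.27 and the 87 elsewhere a median of -0.24. At the Shh promoter, the residual of tSBE2-Vp64 from the fitted line was -0.03. At SBE2/3 the residual was 0.00.

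The slope itself rested on the choice of control array. It was 0.99 with eGFP R2 as the only control array and 0.83 with eGFP R1, and the slope of eGFP R2 on eGFP R1 was 0.82. The 2 control arrays thus differed in range by as much as the populations did. Whether the wider range of eGFP R1 is technical was not tested.

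**Figure D4:**
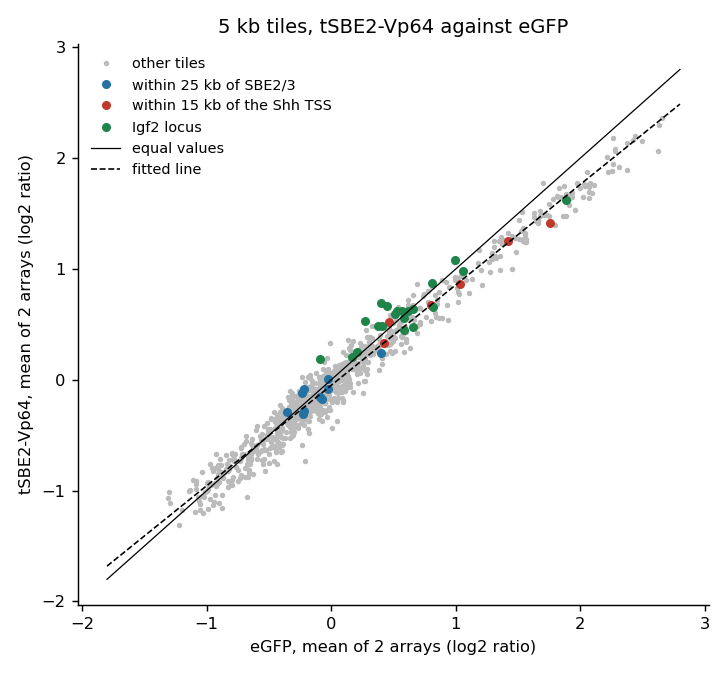
Mean log2 ratio of each 5 kb tile with tSBE2-Vp64 (vertical axis) against eGFP (horizontal axis), with the line of equal values and the fitted line of slope 0.91. Tiles around Shh follow the fitted line as other tiles do, tiles around SBE2/3 lie near 0, and most tiles of the Igf2 locus lie above the line.

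By limma over populations, in which R1 and R2 were averaged and the spread was taken from tShh-Vp64 and tSBE6-Vp64, 0 of 963 tiles were higher (0%) and 0 lower (0%) at an adjusted p of 0.05. At an unadjusted p under 0.05, 2 were higher and 54 lower. The SE was 0.15 for every tile, and the lowest adjusted p, at the tile with the largest difference, was 0.113, so the 0 calls say little about differences of the sizes seen here. That test assumes that single populations vary as those 2 do, and their spread includes any effect of their constructs. By limma over the 8 arrays of the slide, which measures the spread between arrays only, 14 tiles (1.45%) were lower and 0 (0%) higher. With eGFP R1 as the only control array, the same test called 159 tiles. With eGFP R2 as the only control it called 11, and without either tSBE2-Vp64 array, or with the arrays' numbers as a block, 0. Without any fold threshold, 346 tiles (35.9%) were lower on both tSBE2-Vp64 arrays than on both eGFP arrays and 114 (11.8%) were higher. This split was 297 against 191 after loess and scale normalization, 252 against 193 after normexp and 241 against 192 with probes well above background. The excess of lower tiles thus depended on the processing. When tSBE2-Vp64 was rescaled by the slope and intercept of the fitted line, the split was 209 against 236. That rescaling centres the differences over tiles by construction, so its near-even split is not a result. Without rescaling, and with a difference of 0.5 or more as well, 1 tile (0.104%) was lower and 0 (0%) higher.

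That tile lies between genes, upstream of Hoxd13 (chr2:74500001-74505000), a homeobox gene of limb and genital patterning whose TSS is 3.9 kb from its centre. It read 2.79 and 2.46 with eGFP and 2.03 and 2.09 with tSBE2-Vp64, a difference of -0.57 ± 0.15 (SE) with an adjusted p of 0.113 by limma over populations and 0.0386 by limma over arrays. Its central probe (chr2:74502516-74502575) is the last sequence printed above, and read 2.93 and 2.77 against 2.10 and 2.68. The next lowest were a tile 4.7 kb from the En2 TSS (chr5:28485001-28490000, intergenic), at -0.48, and an intergenic tile 11.1 kb from Dppa3, a germ cell and pluripotency gene, at -0.44 (chr6:122585001-122590000). The Dppa3 tile differed from the others in that its level was low, with -0.03 and 0.05 for eGFP and -0.41 and -0.45 for tSBE2-Vp64. Then came an intron of Npas3, a neural transcription factor, at -0.43 (chr12:54350001-54355000) and an intergenic tile 24.6 kb from Six3 at -0.42 (chr17:86035001-86040000). Of these 5, the Hoxd13 and Dppa3 tiles were among the 14 called over arrays, and 0 of the 14 were called with tSBE2-Vp64 rescaled by the fitted line. Rescaling shifts a tile by an amount that its level alone fixes, and it moves tiles with a high ratio most. The Hoxd13 tile went from -0.57 to -0.30 (adjusted p = 0.195 by limma over arrays). The Dppa3 tile, with its low level, went from -0.44 to -0.43 (adjusted p = 0.056 by limma over arrays).

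Of all 963 tiles, 260 lay in the region around Shh, and of the 14 called over arrays, 3 did. They were a tile in an intron of 9530036O11Rik (chr5:28935001-28940000, -0.37), an intergenic tile nearest Rnf32 (chr5:29480001-29485000, -0.34) and one in an intron of Rnf32 (chr5:29540001-29545000, -0.30). Shh itself, En2 and SBE2/3 were not among them. The rest lay at Foxa2, Nkx2-2, Dbx2, Npas3, Sox2, Dppa3 and Hoxd13.

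Among tiles with arrays apart, the largest higher difference was 0.34, against -0.57 for the lowest. The 5 largest higher tiles were in an intron of Pax6os1, an RNA antisense to the eye and neural gene Pax6, at 0.34 (chr2:105400001-105405000), in Smc3, a cohesin subunit, at 0.29 (chr19:53685001-53690000), in Igf2as at 0.29 (chr7:149855001-149860000), in an intergenic tile 38.8 kb from Mrpl23 at 0.28 (chr7:149755001-149760000), and in an intron of 9530036O11Rik at 0.26 (chr5:28980001-28985000). The adjusted p of each was 0.69 or more by limma over populations and 0.0579 or more by limma over arrays. The central probe of the Pax6os1 tile went against its tile, at 0.02 and 0.48 with eGFP and -0.09 and -0.31 with tSBE2-Vp64. The Igf2as tile read 0.45 and 0.35 with eGFP and 0.74 and 0.64 with tSBE2-Vp64. It was also higher with constructs not aimed at SBE2, with means of 0.69 for tShh-Vp64 and 1.12 for tSBE6-Vp64. The 9530036O11Rik tile had a mean of 0.33 with tSBE6-Vp64 and -0.16 with tShh-Vp64, against 0.03 with tSBE2-Vp64. At the Pax6os1, Smc3 and Mrpl23 tiles, both of these other constructs were below tSBE2-Vp64.

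By tiled locus, both tSBE2-Vp64 arrays were below both eGFP arrays at 24 of 39 loci and above them at 1. The lowest were Nkx2-2 (-0.25), Foxa2 (-0.25), Nkx6-1 (-0.20) and Six3 (-0.18), all transcription factors of the ventral neural tube, endoderm or forebrain with a mean ratio of 1.33 to 1.63 in eGFP cells. Myc (-0.17) came next and was alone among the 5 lowest in having little H3K27me3, at -0.25 in eGFP cells. It also had the lowest residual from the fitted line, at -0.15. Within 5 kb of the Myc TSS, however, the other TALE populations of the slide were below eGFP too. The difference there was -0.40 for tShh-Vp64 and -0.23 for tSBE6-Vp64, against -0.21 for tSBE2-Vp64. The whole region around Shh, at -0.04, ranked 27 of 39 from the lowest. The locus of Polr2f, a subunit shared by RNA polymerases, was highest at 0.06, and the locus of the imprinted growth factor Igf2 had the largest positive residual from the line, at 0.15. At Igf2, 7 of 21 tiles were higher on both arrays and 4 lower, where the shares over all tiles were 11.8% and 35.9%.

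Within 5 kb of the TSS, 42 promoters of the gene lists were measured, and 24 were lower on both tSBE2-Vp64 arrays, 1 was higher and 17 overlapped. The tile background was 35.9% lower and 11.8% higher, but these promoters were richer in H3K27me3 than the tiles, with a median of 1.23 in eGFP cells. In order of difference, Shh ranked 17 of 42, and the median of the 42 was -0.15. Beside Shh, only the hedgehog receptor Ptch1 of the 15 hedgehog pathway genes was measured, at 1.66 and 1.46 with eGFP and 1.50 and 1.53 with tSBE2-Vp64, so its arrays overlapped. Of 12 neural genes measured, 8 were lower and 0 higher, with a median of -0.21 and examples in Npas3 (-0.35), Nkx6-1 (-0.29) and Pax6 (-0.27). Six3, whose protein binds SBE2, overlapped at 2.07 and 1.69 against 1.77 and 1.79. Of 9 Hox genes, all in the Hoxd cluster, 7 were lower and 0 higher, with a median of -0.26. Windows of several neighbouring Hoxd genes overlap and share probes, so the 9 are not separate measurements, here or among the 42. They ran from Hoxd13 (-0.40) and Hoxd12 (-0.39) to Hoxd4 (-0.15).

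**Figure D5:**
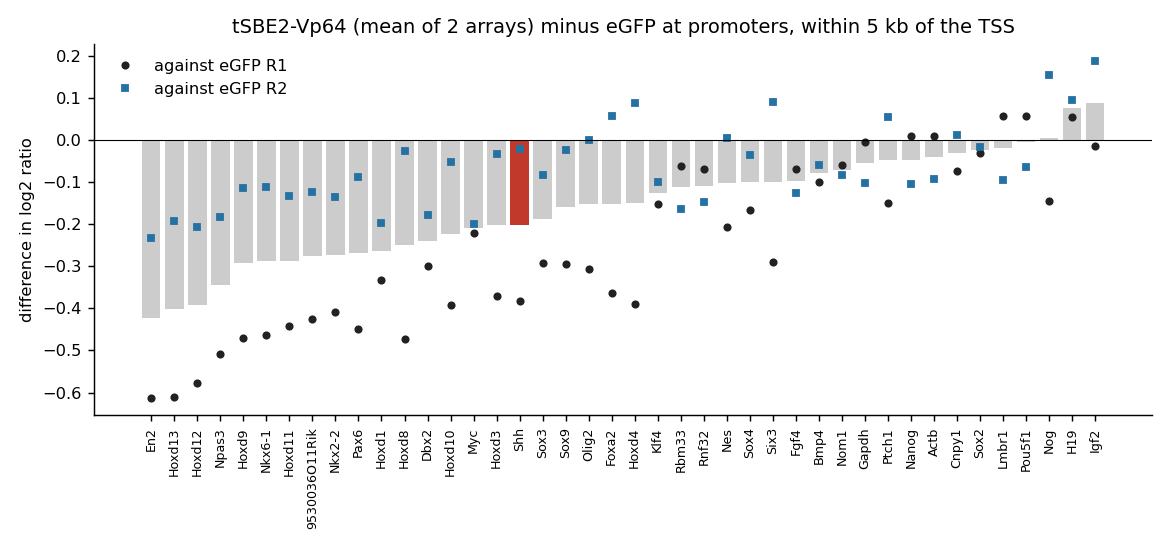
Difference in log2 ratio at 42 promoters, tSBE2-Vp64 (mean of 2 arrays) minus the mean of both eGFP arrays (bars, Shh in red), with the difference against each eGFP array as points. The points against eGFP R1 lie below those against eGFP R2 at the H3K27me3-rich promoters on the left, and at Shh they are -0.38 and -0.02.

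Pluripotency genes had ratios far below those of the Hoxd genes in both populations. Of 6 measured, 3 were lower and 0 higher, where 35.9% of all tiles were lower and 11.8% higher. The 3 were Myc (-0.21), Klf4 (-0.12) and Fgf4 (-0.10), and in the authors' ratios they were at -0.18, -0.06 and -0.03. All 3 were also below eGFP with both other constructs of this slide. In the same order, the differences were -0.40, -0.18 and -0.13 for tShh-Vp64 and -0.23, -0.24 and -0.15 for tSBE6-Vp64. Pou5f1, which encodes OCT4, read -0.53 and -0.40 with eGFP and -0.49 and -0.45 with tSBE2-Vp64, and Nanog -0.70 and -0.58 against -0.69 and -0.69. Klf4 read 0.15 and 0.10 against -0.01 and 0.01. Gapdh and Actb, broadly expressed genes, overlapped at -0.05 and -0.04. The low ratio at Pou5f1 and Nanog and the high ratio at Foxa2, an endoderm gene (1.94 and 1.52 with eGFP, 1.57 and 1.59 with tSBE2-Vp64), were shared by both populations. Foxa2 was the only marker of other cell types measured, of 14 listed. Of the 7 BMP pathway genes, 2 were measured, Bmp4 at -0.08 (lower on both arrays) and its antagonist Nog at 0.01 (overlapping). The 2 imprinted genes measured of 6 were the only promoters above 0.05. H19 read 0.23 and 0.19 with eGFP and 0.29 and 0.29 with tSBE2-Vp64 and was the 1 promoter higher on both arrays. Igf2 read 1.30 on eGFP R1 and 1.20 as the mean of both eGFP arrays, against 1.29 and 1.29, so its arrays overlapped.

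CpG content went with both the level and the difference. In the 572 tiles with fewer than 10 CpGs per kb, the median difference was -0.03 and 31.3% were lower on both arrays. In the 94 tiles with 20 to 40 CpGs per kb the median was -0.19 and 60.6% were lower. In the 27 tiles with 40 or more it was -0.18 and 63.0% were lower. The 2 tiles over Shh had 36.0 and 41.6 CpGs per kb. Across tiles, the correlation of CpG density was 0.50 with the eGFP level, -0.34 with the difference and -0.09 with the residual from the fitted line. Tiles share arrays and neighbours share sequence, so these are descriptions only.

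The other TALE-Vp64 populations, compared with the same eGFP arrays, give a scale for these values. At the Shh promoter, tShh-Vp64 read 0.92 and 0.88 and tSBE6-Vp64 read 0.95 and 0.99, which is -0.36 and -0.29 from eGFP, so tSBE2-Vp64 at -0.20 was the nearest of the 3 to eGFP on this slide. tSBE(6+2)-Vp64, which combines the TALEs for both enhancers, read 1.35 and 1.42 on another slide, and slide and construct cannot be told apart there. At En2 the differences from eGFP were -0.43 for tShh-Vp64, -0.42 for tSBE6-Vp64 and -0.42 for tSBE2-Vp64, and at Pax6 they were -0.555, -0.47 and -0.27. Low values against these eGFP arrays at these H3K27me3-rich promoters were thus seen with the other constructs of this slide too. For tSBE(6+2)-Vp64, on the other slide, the differences from the same eGFP arrays were -0.10 at En2 and 0.21 at Pax6. At SBE2/3, tShh-Vp64 read -0.04 and 0.03, tSBE6-Vp64 -0.14 and -0.18, and tSBE(6+2)-Vp64 -0.09 and -0.12. The tSBE2-Vp64 arrays thus lay inside the range of tSBE6-Vp64, which was not aimed at SBE2. All these comparisons share the eGFP arrays.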

How the data were processed

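H3K27me3 native ChIP and input DNA of 46c mESCs were hybridised to custom Agilent tiling arrays. Spot intensity values were extracted by the authors with Feature Extraction 11.5.1.1 separately for each dye and deposited as processed signals. A table of log2 ratios deposited by the authors holds R1 and R2 combined, and the labels name limma as the tool. The study's methods describe other arrays.

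Here the log2 of the red over the green processed signal was centred on each array's median, with no loess, in mm9 coordinates with GENCODE vM1 genes. Control spots and outlier-marked spots were left out. Probes were averaged in 5 kb tiles (at least 5 probes) and in windows, and tested with limma 3.58.1 (R 4.3.3) with Benjamini-Hochberg adjustment. The fit over populations averages R1 and R2. A fit over arrays measures their spread only. Both were tested on simulated data. The number of arrays limits the precision. Alternatives were loess with scale, normexp (offset 50, on median signals, as mean signals were not used here), the authors' ratios, leaving out dim or saturated probes, rescaling, other tiles, windows and thresholds, leaving out arrays and a replicate block.

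The members, gene lists and tests were chosen with earlier results of these data known. Named were Shh, its enhancers, genes around it, tiled loci, the gene lists, and the 5 highest and 5 lowest tiles whose arrays did not overlap, adjoining tiles counted once. The bin 10 to 12 kb beyond SBE2/3, the 2 sides of SBE2/3 and the 14 tiles called over arrays were added after seeing the values.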

Additional observations from a re-analysis of the deposited data

How the results depend on the processing

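The difference at the Shh promoter kept its sign under every alternative run, from -0.38 with eGFP R1 as the only control array to -0.02 with eGFP R2 alone, and was -0.04 after rescaling. At SBE2/3 it was -0.0149 after loess and scale, 0.0129 after normexp, 0.0238 with probes well above background, 0.0223 in the authors' ratios, -0.0029 after rescaling, -0.071 within 5 kb, -0.0155 within 25 kb, and -0.0467 to -0.0362 without any 1 array. The cause of these changes was not tested. The slope over tiles was 0.83 to 0.99 without 1 array, and is 1 after rescaling by construction. The rescaling used the slope and intercept of the fitted line, so it also centres the differences over tiles by construction.

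Tiles called over populations, 0 as reported, were 2 after normexp, 2 with probes well above background, 4 with no probe minimum, 20 with a variance trend and robust fit, and 0 to 29 without 1 array. Tiles called over arrays, 14 as reported, were 30 after loess and scale (6 higher, 24 lower, 11 of them shared with the 14), 32 of 2 kb, 0 after normexp, 0 with probes well above background, 0 after rescaling, 0 in a fit of the 4 arrays alone, and 0 to 159 without 1 array. With the array number as a replicate block, 0 were called, and 0 in the 4 arrays with the block (added after seeing the data). R1 and R2 share only a number between populations: the correlation of their deviations was -0.25 between eGFP and tSBE2-Vp64 and ran from -0.25 to 0.43 over the 4 populations.

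Tiles lower by 0.5 or more with arrays apart, 1 as reported, were 25 of 2 kb, 2 with no probe minimum, 43 at a threshold of 0.3, 0 at 1, 0 after normexp, 0 with probes well above background, 0 after rescaling, 0 of 10 kb, 0 in the authors' ratios (without the array criterion), and 1 to 14 without 1 array. Those higher, 0 as reported, were 4 of 2 kb, 1 with no probe minimum and 1 at a threshold of 0.3. Without a fold, higher tiles (114) were 191 after loess and scale, 193 after normexp, 192 with probes well above background, 236 after rescaling, 355 of 2 kb, 50 of 10 kb and 207 to 268 without 1 array. Lower tiles (346 of 963, 35.9%) were 209 after rescaling, 784 of 2 kb and 197 of 10 kb. The number of tiles differs with their size: of 2290 tiles of 2 kb, 34.2% were lower and 15.5% higher. With 1 array left out, fewer arrays have to be apart, so those counts are not comparable with the others. Turning the sign of the ratio turns every direction and no size. Signal over background also limits the ratios: 34686 of 48316 probes were well above background and unsaturated on all 8 arrays.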
